A study of Mus musculus with 8 samples.

Results

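The 76 genes described here encode proteins of the mitochondrial ribosome, the particle that translates the messages of mitochondrial DNA. They are the genes with a symbol of the form Mrpl or Mrps followed by a number, among 18193 genes that had a probe set annotated with a single symbol. Together they had 156 such probe sets, and each gene was read by the one with the highest mean signal over the 8 arrays. The genes entered the set by name, not by their values, although the set was chosen with earlier results of these data known. They lay on 17 chromosomes, with 11 on chromosome 11 and 8 on chromosome 17.

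Mitochondrial ribosomal proteins are encoded in the nucleus, made in the cytosol and imported. They assemble with mitochondrial ribosomal RNA into a small subunit, which reads the message, and a large subunit, which joins the amino acids. The only products are membrane proteins of the respiratory chain and ATP synthase, so these genes are needed for oxidative phosphorylation. Many of the proteins descend from bacterial ribosomal proteins, and others occur only in mitochondria.

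The study measured RNA in bone marrow progenitors of male mice, on a background given as mainly C576BL/6, sorted as common myeloid progenitors (CMP) or as granulocyte–macrophage progenitors (GMP), a stage closer to neutrophils and monocytes. The normal mice were G0 TERTER/+, and the mice with short telomeres were G4/G5 TERTER/ER. The labels list no treatment and no age. TERTER is an allele in which telomerase reverse transcriptase is fused to an estrogen receptor domain. Both genotypes carried at least 1 copy of it, and the G4/G5 animals came from late generations of homozygous breeding. Each of the 4 groups had 2 arrays, called pool 1 and pool 2, and each array held cells sorted from 4 mice. Per sample, 5000 to 20000 cells were sorted, and the labelling started from 5 to 10 ng of RNA. Values are MAS5 signals on a linear scale from Affymetrix 3′ arrays, which the authors scaled to a target of 100.

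Array medians over all probe sets were 14.3 to 18.5, and 31.6% to 35.2% of probe sets reached a signal of 50. Kit and Cd34, markers of progenitors, read 723 or more and 880 or more on all 8 arrays, and the lymphocyte genes Cd3e, Cd79a and Ms4a1 stayed below 13. From the same marker list, Fcgr3 read 38.7 and 83.9 (G0 CMP), 617 and 72.2 (G4/G5 CMP) and 732 to 1457 in GMP. Fcgr2b read 219 and 369 (G0 CMP), 807 and 503 (G4/G5 CMP) and 1211 to 1577 in GMP. Il7r, a gene of lymphoid progenitors, read 101 in G0 CMP pool 1 and at most 19.0 on the other arrays. The summed signal of 9 GMP markers was 7001 and 14761 (G0 CMP), 26348 and 23231 (G4/G5 CMP) and 33207 to 38735 on the 4 GMP arrays. The sum of 9 CMP and megakaryocyte-erythroid markers was 2951 to 6269 on the CMP arrays and 771 to 1509 on the GMP arrays. Genes of maturing neutrophils stood apart in G4/G5 CMP pool 1, where 19 genes summed to 70681, against 922 to 1220 on the other 3 CMP arrays. In GMP their sum was 2616 and 4973 (G0) and 37189 and 40967 (G4/G5).

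All 76 genes reached a signal of at least 50 on at least 2 arrays, the condition for being tested with 8886 genes in all, and 71 of them read at least 100 on every array. By current knowledge of the structure, 26 belong to the small subunit and 49 to the large one. Mrps18a and Mrps30, whose names carry the letter of the small subunit, are counted with the large one. Mrps36 is a component of the α-ketoglutarate dehydrogenase complex and was kept only for its name. Mean signals ran from 83.6 to 1499, with a median of 488 against 205 over all genes tested. The brightest probe sets were those of Mrpl51, Mrps14, Mrpl39, Mrpl13 and Mrpl24, and the dimmest those of Mrps27, Mrpl38, Mrpl1, Mrpl37 and Mrpl49. Brightness depends on the probe, so it does not order the genes by their RNA.

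Mitochondrial ribosomal protein RNA was higher in GMP than in CMP. In normal (G0) mice, 51 of the 76 genes were higher in GMP and none was lower at an adjusted p under 0.05, where 10.6% of the 8886 tested genes were higher and 10.2% lower. The median difference was 0.62 on the log2(signal + 10) scale, a 1.54-fold rise, against -0.02 over all tested genes. It was above 0 for 74 of the 76 genes (48.7% of tested genes), and in 71 both GMP pools lay above both CMP pools (32.2% of tested genes). Single differences ran from -0.47 to 1.14, and 61 had an unadjusted p under 0.05 (36.5% of tested genes). In RNA of a whole sorted pool, fewer cells of a kind and less RNA per cell cannot be told apart. The GMP and CMP marker sums given above moved with this comparison, and their part in the result was not tested.

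The number of calls changed with single pools, in this family and over all tested genes. A group then has 1 array, so medians are given here, with those of all tested genes in brackets. The median difference was 0.56 (-0.005) without G0 GMP pool 1 and 0.70 (-0.02) without G0 GMP pool 2. It was 0.57 (0.03) without G0 CMP pool 2, and 0.67 (-0.05) without G0 CMP pool 1, where Il7r was higher. The median difference stayed between 0.56 and 0.70, and 74 genes stayed above 0, whichever of the 8 arrays was left out.

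**Figure D1:**
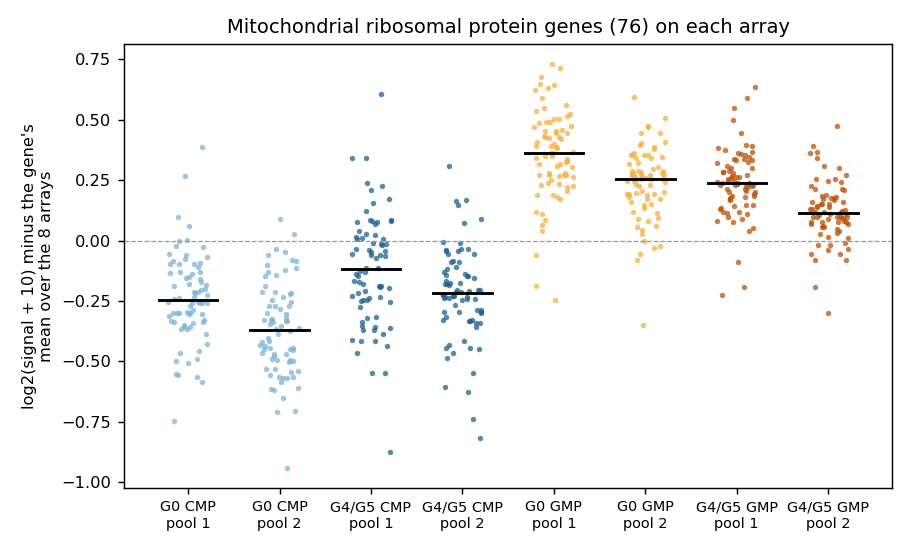
Each point is 1 of the 76 genes on 1 array, as log2(signal + 10) minus that gene's mean over the 8 arrays, and black lines are medians over the genes. The medians of the 4 CMP arrays lie below 0 and those of the 4 GMP arrays above it, and pools of the same group differ by about as much as the genotypes do.

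Promoter windows are shown for 5 genes because 59.7% of the matched windows held a motif of a regulator known for nuclear genes of mitochondria, against 34.9% of windows of tested genes and 19.5% of all windows. RefSeq promoters on GRCm38.p6, 250 bases before to 50 after the gene's start, were matched for 67 of the 76 genes. Capitals mark matches on either strand to GCGC, any base and TGCGC in a row (NRF1, nuclear respiratory factor 1), CCGGAAG (the ETS family, which includes GABP) or AAGATGGC (YY1). The windows lie at chr4:107066817-107067116 on the minus strand (Mrpl37), chr17:35916391-35916690 minus (Mrps18b), chr11:120484387-120484686 plus (Mrpl12), chr7:78782881-78783180 plus (Mrps11) and chr14:54426659-54426958 plus (Mrpl52). Mrpl37, Mrps18b and Mrpl12 are shown for their rise in GMP, Mrps11 because its window also covers the start of Mrpl46, and Mrpl52 because it was the gene furthest below 0. Mrps11, Mrpl46 and Mrpl52 were picked after the values were seen. All 5 windows shown hold a marked motif, but not every gene with a large rise did. Among other large rises in G0 GMP, Mrpl49 (YY1) and Mrps18a (ETS and YY1) held these letters. Mrpl20 and Mrpl47 held none of them, and Mrps34 had no matched window.
Mrpl37: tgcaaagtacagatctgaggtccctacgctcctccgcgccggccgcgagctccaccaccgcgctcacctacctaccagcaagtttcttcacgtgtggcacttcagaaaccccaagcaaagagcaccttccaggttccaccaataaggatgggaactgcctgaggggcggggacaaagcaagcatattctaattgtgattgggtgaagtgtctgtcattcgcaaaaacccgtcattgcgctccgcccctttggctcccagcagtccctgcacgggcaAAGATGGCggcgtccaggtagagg
Mrps18b: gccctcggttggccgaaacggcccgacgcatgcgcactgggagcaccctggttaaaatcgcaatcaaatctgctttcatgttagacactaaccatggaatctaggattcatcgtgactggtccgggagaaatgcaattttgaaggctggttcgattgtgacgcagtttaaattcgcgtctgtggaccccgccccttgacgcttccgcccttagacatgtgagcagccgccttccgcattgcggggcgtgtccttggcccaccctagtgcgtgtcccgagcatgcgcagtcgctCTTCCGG
Mrpl12: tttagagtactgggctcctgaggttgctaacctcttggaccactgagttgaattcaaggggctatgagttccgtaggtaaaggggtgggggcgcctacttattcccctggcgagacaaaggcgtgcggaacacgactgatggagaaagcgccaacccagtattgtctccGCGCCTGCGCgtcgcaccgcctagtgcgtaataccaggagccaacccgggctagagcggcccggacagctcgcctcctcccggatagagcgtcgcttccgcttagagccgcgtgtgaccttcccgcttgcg
Mrps11: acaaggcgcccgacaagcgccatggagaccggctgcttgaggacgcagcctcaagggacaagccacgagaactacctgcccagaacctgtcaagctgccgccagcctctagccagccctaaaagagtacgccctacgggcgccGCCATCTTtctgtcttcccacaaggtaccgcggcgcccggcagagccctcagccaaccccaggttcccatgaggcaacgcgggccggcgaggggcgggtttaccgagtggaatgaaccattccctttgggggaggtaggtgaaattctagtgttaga
Mrpl52: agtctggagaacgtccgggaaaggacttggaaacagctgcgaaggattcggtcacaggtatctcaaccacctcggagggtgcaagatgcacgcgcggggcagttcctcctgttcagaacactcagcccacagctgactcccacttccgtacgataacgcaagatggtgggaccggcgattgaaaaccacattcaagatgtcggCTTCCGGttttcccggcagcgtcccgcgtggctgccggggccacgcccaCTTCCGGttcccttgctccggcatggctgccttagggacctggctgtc

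The YY1 letters stood in 12 of the 67 windows (17.9%), against 5.68% of 7212 windows of tested genes and 3.22% of all 17491 windows. ETS letters stood in 24 windows (35.8%, against 21.4% and 11.9%), and NRF1 letters in 12 (17.9%, against 12.4% and 6.60%). SP1 letters, GGGCGG, stood in 34 windows (50.7%), a share below the 66.8% of tested genes and above the 46.3% of all windows. TATAAA stood in 4 windows (5.97%, against 6.39% and 13.3%), and the E-box CACGTG in 5 (7.46%, against 11.2% and 7.90%). None of these motifs contains another, and no window was searched beyond its 300 bases. In 23 of the 67 genes (34.3%) another gene on the opposite strand began within 1000 bases upstream, against 14.4% of tested genes and 8.24% of all. Opposite starts a short way downstream of the gene's own start were counted as well.

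**Figure D2:**
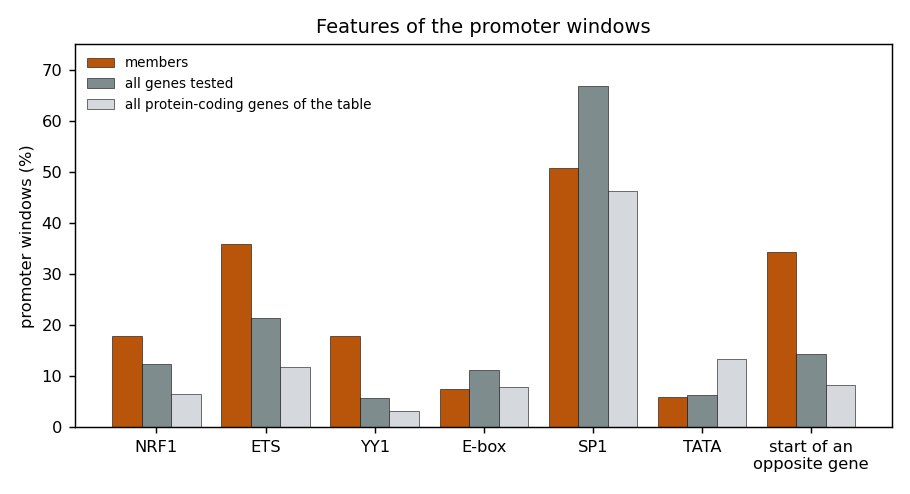
Share of promoter windows (%) that hold each motif, or that have the start of a gene on the opposite strand within 1000 bases upstream, for the 67 matched mitochondrial ribosomal protein genes (members), the 7212 tested genes and all 17491 protein-coding genes with a window. Opposite starts a short way downstream of the gene's own start are counted too. The members' bars are above both others for NRF1, ETS, YY1 and the opposite gene start, and below that of the tested genes for SP1.

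One such neighbour pair lies within the family: Mrps11, of the small subunit, and Mrpl46, of the large one. They start 42 bases apart on opposite strands, so the printed Mrps11 window covers the start of both. The signals of Mrps11 were 166 and 137 (G0 CMP), 264 and 224 (G0 GMP), 221 and 170 (G4/G5 CMP) and 233 and 195 (G4/G5 GMP). Mrpl46 read 253 and 216 (G0 CMP), 422 and 349 (G0 GMP), 244 and 249 (G4/G5 CMP) and 344 and 317 (G4/G5 GMP). Both were highest in G0 GMP, where neither overlapped G0 CMP, with log2 differences of 0.65 ± 0.19 (SE, adjusted p = 0.0410) and 0.69 ± 0.15 (adjusted p = 0.0182). Genes that hold the YY1 letters had a median log2 difference between G0 GMP and G0 CMP of 0.71 (12 genes), and those without them 0.61 (55 genes). The same medians were 0.63 and 0.61 with and without the ETS letters, and 0.52 and 0.62 with and without the NRF1 letters.

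The steepest rise was that of Mrpl37, a protein of the large subunit found only in mitochondria. The gene's only single-symbol probe set is of a kind that can match several transcripts. Its signal was 101 and 90.5 (G0 CMP), 208 and 239 (G0 GMP), 180.0 and 111 (G4/G5 CMP) and 172 and 202 (G4/G5 GMP). The normal groups were well apart, while in G4/G5 the higher CMP pool reached above the lower GMP pool. The log2 difference was 1.14 ± 0.22 (adjusted p = 0.0128) in G0 and 0.37 ± 0.22 (adjusted p = 0.299) in G4/G5.

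Mrpl12 belongs to the stalk of the large subunit, which recruits translation factors, and also binds the mitochondrial RNA polymerase. It read 950 and 658 (G0 CMP), 1797 and 1434 (G0 GMP), 942 and 807 (G4/G5 CMP) and 1317 and 1140 (G4/G5 GMP). GMP lay above CMP in both genotypes without overlap, with a difference of 1.01 ± 0.20 (adjusted p = 0.0124) in G0 and 0.49 (adjusted p = 0.147) in G4/G5.

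Among other large subunit proteins, Mrpl49, found only in mitochondria, read 154 and 79.0 in G0 CMP and 247 and 223 in G0 GMP (1.02 ± 0.26, adjusted p = 0.0306). Mrpl20, the counterpart of bacterial L20, read 372 and 311 against 797 and 589 (0.99 ± 0.23, adjusted p = 0.0213). Mrpl47, the counterpart of bacterial L29, read 479 and 355 against 848 and 752 (0.94 ± 0.19, adjusted p = 0.0137). None of these 3 overlapped between the normal groups. In G4/G5 their differences were 0.53, 0.39 and 0.64, with adjusted p of 0.217, 0.288 and 0.0654.

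The gene set holds 3 paralogs of bacterial ribosomal protein S18, each with its own place in the ribosome: Mrps18a in the large subunit, and Mrps18b and Mrps18c in the small one. Mrps18b read 253 and 213 (G0 CMP), 499.5 and 449.5 (G0 GMP), 252 and 271 (G4/G5 CMP) and 362 and 374 (G4/G5 GMP). Mrps18a read 263 and 310 (G0 CMP), 617 and 497 (G0 GMP), 290.1 and 381 (G4/G5 CMP) and 473 and 412 (G4/G5 GMP). Mrps18c read 764 and 646 (G0 CMP), 1190 and 931 (G0 GMP), 1107 and 768 (G4/G5 CMP) and 1247 and 1093 (G4/G5 GMP). The first pair was highest in G0 GMP, whereas the mean of Mrps18c was highest in G4/G5 GMP. In G0 the differences were 1.00 ± 0.14 (adjusted p = 0.00489) for Mrps18b, the smallest adjusted p of the family there, 0.93 ± 0.18 (adjusted p = 0.0127) for Mrps18a, and 0.58 ± 0.20 (adjusted p = 0.0754) for Mrps18c, which did not pass. The difference between the paralogs was not tested.

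**Figure D3:**
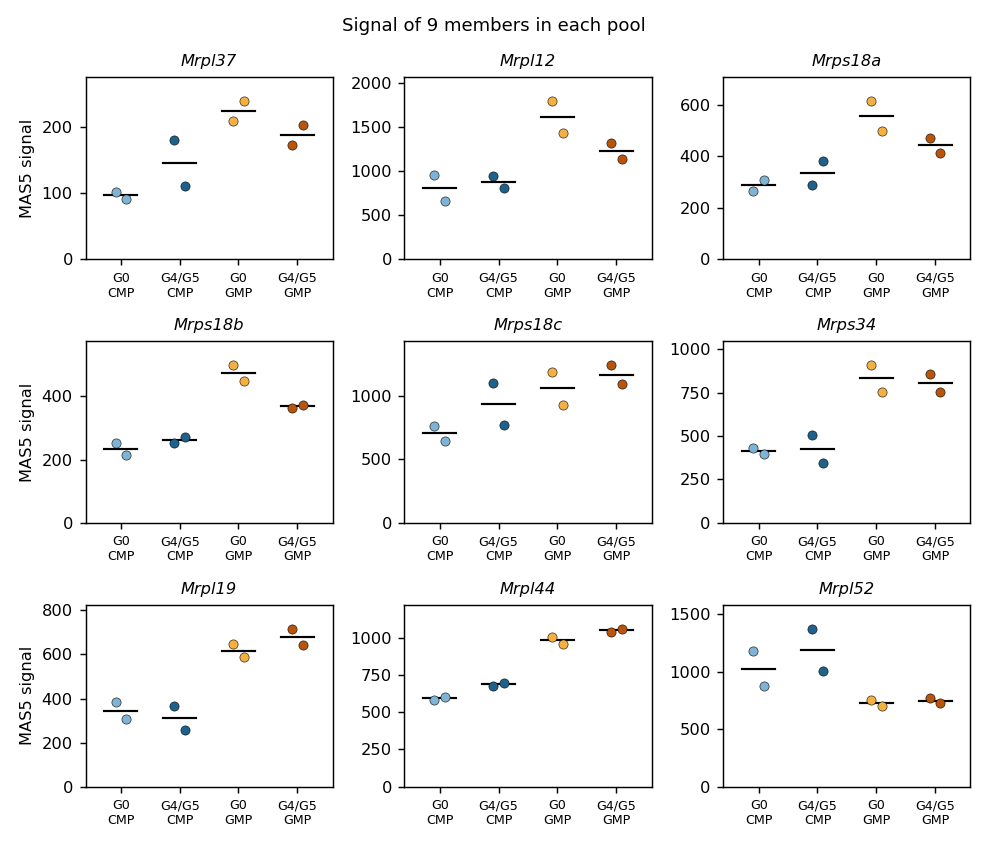
MAS5 signal of 9 genes in each pool (points) with the mean of the 2 pools (bars), by group, with each axis from 0. Mrpl37, Mrpl12, Mrps18a and Mrps18b peak in G0 GMP, Mrps34, Mrpl19 and Mrpl44 are high in both GMP groups, and Mrpl52 is lower in GMP than in CMP.

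By subunit, 19 of 26 small subunit genes and 31 of 49 large subunit genes were higher in G0 GMP, with medians of 0.65 and 0.62. Of all tested genes, 10.6% were higher in this comparison. Of the small subunit genes, 9 of the 10 classed as specific to mitochondria were called (median 0.78) and 10 of the 16 with bacterial counterparts (median 0.57). Mrps18b, although a paralog of bacterial S18, was classed here with those specific to mitochondria. In the large subunit the counts were 13 of 18 (median 0.62) and 17 of 29 (median 0.62), and its remaining genes were placed in neither class. Mrps12, the counterpart of the bacterial decoding-centre protein S12, read 508 and 420.5 in G0 CMP and 828 and 713 in G0 GMP (0.72 ± 0.15, adjusted p = 0.0145). Mrps27, a pentatricopeptide repeat protein, read 50.8 and 68.6 against 107 and 109 (0.77 ± 0.19, adjusted p = 0.0279). In the large subunit, Mrpl45, which lies at the tunnel exit towards the inner membrane, rose by 0.62 (adjusted p = 0.0314). Mrpl41, a protein specific to mitochondria, rose by 0.68 (adjusted p = 0.0212). The differences of Mrpl28 (0.41, adjusted p = 0.110), the counterpart of bacterial L28, and of Mrps30 (0.34, adjusted p = 0.150) did not pass. Mrps36, outside the ribosome, rose by 0.56 (adjusted p = 0.0244). Of the genes with the brightest probe sets, Mrpl51 and Mrps14 were called, whereas Mrpl39 (0.31), Mrpl13 (0.39) and Mrpl24 (0.23) were not, at adjusted p of 0.144, 0.0553 and 0.188. Of the dimmest, Mrpl1 rose by 0.71 (adjusted p = 0.0253), and Mrpl38 had the least certain difference, 0.51 ± 0.34 (adjusted p = 0.315).

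In telomere-dysfunctional (G4/G5) mice, 10 of the 76 genes were higher in GMP than in CMP and none was lower, against 4.18% and 6.29% of tested genes. All 10 were among the 51 called in G0. The median difference was 0.34 (1.26-fold), against -0.04 over all tested genes, and 70 genes were above 0 (46.3% of tested genes). In 57 genes GMP lay above CMP without overlap and in 3 below (27.7% and 33% of tested genes), and 56 genes did not overlap in either genotype, GMP being higher (20.4% of tested genes). With the pool number as a block within each cell type, as the series text pairs the pools, 14 genes were called higher and 1 lower. Over all 8886 tested genes this fit called 596 higher and 869 lower. With 1 block shared by the cell types the calls were 15 and 1, and 516 and 709 over all tested genes. Calls also changed with single pools, in this family and over all tested genes. Without G4/G5 CMP pool 1, which carried the neutrophil genes, the median was 0.41 (-0.08 over all tested genes). It was 0.27 without G4/G5 CMP pool 2, 0.26 without G4/G5 GMP pool 1 and 0.40 without G4/G5 GMP pool 2.

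Mrpl19, the counterpart of bacterial L19 at the contact between subunits, had the largest difference in G4/G5. It read 382 and 306 (G0 CMP), 647 and 587 (G0 GMP), 365 and 255 (G4/G5 CMP) and 717 and 641 (G4/G5 GMP). The difference was 1.12 ± 0.19 (adjusted p = 0.0127) in G4/G5 and 0.83 (adjusted p = 0.0207) in G0. Its probe set can cross-hybridise by its name, and another probe set of the gene gave 1.00 and 1.01.

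Mrps34, needed in mouse for a stable small subunit, read 432 and 397 (G0 CMP), 911 and 753 (G0 GMP), 509 and 346 (G4/G5 CMP) and 860 and 754 (G4/G5 GMP). Its difference was nearly the same in the genotypes, 0.98 ± 0.19 (adjusted p = 0.0128) in G0 and 0.92 (adjusted p = 0.0251) in G4/G5. Mrps5, the counterpart of bacterial S5, read 144 and 142 (G0 CMP), 261 and 227 (G0 GMP), 130.3 and 131 (G4/G5 CMP) and 264 and 236 (G4/G5 GMP). The CMP pools lay close together and far below the GMP pools, with differences of 0.73 ± 0.15 (adjusted p = 0.0136) and 0.89 (adjusted p = 0.0118).

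Mrpl44 resembles ribonuclease III and lies on the surface of the large subunit. It read 583 and 602 (G0 CMP), 1007 and 958 (G0 GMP), 677 and 698 (G4/G5 CMP) and 1038 and 1060 (G4/G5 GMP). Its pools agreed closely in every group, and it rose by 0.72 ± 0.11 (adjusted p = 0.00659) in G0 and by 0.60 (adjusted p = 0.0168) in G4/G5. The other genes called in both genotypes were Mrps25 (0.89 in G0 and 0.75 in G4/G5), Mrpl51 (0.77 and 0.73), Mrpl2 (0.73 and 0.68), Mrps10 (0.83 and 0.58), Mrpl17 (0.72 and 0.56) and Mrps31 (0.59 and 0.54). Mrpl2, Mrpl17 and Mrps10 are counterparts of bacterial L2, L17 and S10, and Mrps25, Mrps31 and Mrpl51 are specific to mitochondria.

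**Figure D4:**
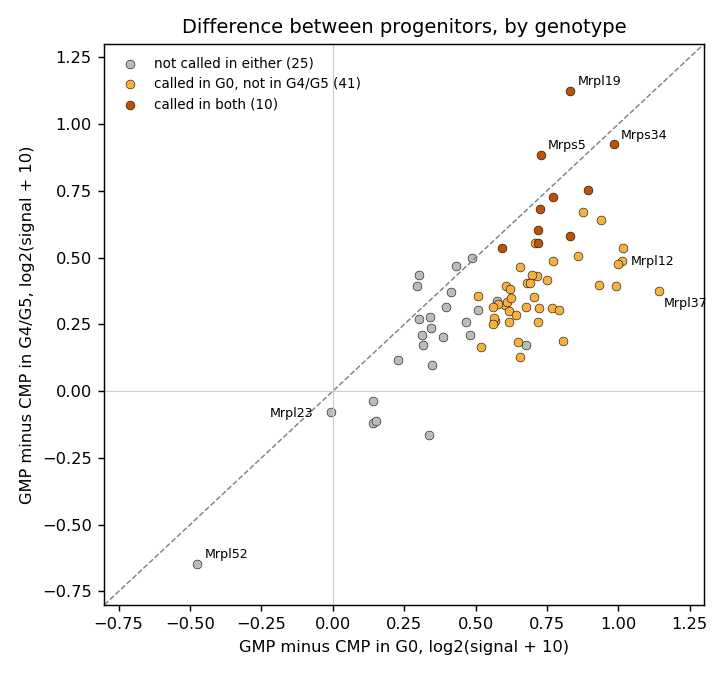
GMP minus CMP difference of each of the 76 genes in log2(signal + 10), in G0 (horizontal) and in G4/G5 (vertical), coloured by whether limma's adjusted p was under 0.05, with a dashed line of equal differences. The 10 genes called in both include Mrpl19 and Mrps5 above the line, 41 were called in G0 and not in G4/G5, and 70 of the 76 lie below the line.

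The genes below 0 in G0 were Mrpl23 and Mrpl52, the latter named after its values were seen. Mrpl52, a large subunit protein found only in mitochondria, read 1177 and 874 (G0 CMP), 755 and 701 (G0 GMP), 1372 and 1005 (G4/G5 CMP) and 766 and 728 (G4/G5 GMP). All 4 GMP pools lay below all 4 CMP pools, with differences of -0.47 ± 0.19 (adjusted p = 0.105) in G0 and -0.65 (adjusted p = 0.0626) in G4/G5. With the pool block within cell type these differences passed, at adjusted p of 0.0225 and 0.0159. Its 3 probe sets past the signal condition gave -0.85 to -0.47 in G0 and -0.98 to -0.65 in G4/G5. Mrpl23, the counterpart of bacterial L23 at the tunnel exit, read 803 and 836 (G0 CMP), 786 and 847 (G0 GMP), 1011 and 1007 (G4/G5 CMP) and 959 and 953 (G4/G5 GMP). Its signal was higher in G4/G5 than in G0 without overlap in CMP and in GMP (21.7% and 28.8% of tested genes). Neither difference was called.

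Several probe sets passed the signal condition for 26 of the 76 genes, and in 4 of them the probe sets differed in sign in G0 and in 6 in G4/G5. For Mrpl15, called in G0 (0.68, adjusted p = 0.0184), 6 probe sets ran from -0.78 to 0.89, with the lowest at signals under 85. The other probe sets of Mrpl50 and Mrps14, genes called in G0 at 0.58 and 0.57, gave -0.29 and -0.07. Of 3 probe sets of Mrps5, 1 gave 0.08 in G0 and -0.38 in G4/G5. For 10 genes the probe set used was of a kind that can match several transcripts, and of these Mrpl37 and Mrps12 had no other.

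Genotype comparisons ask whether short telomeres go with a change of these genes within a cell type. In CMP none of the 76 genes was called (0.0113% of tested genes in either direction), and 7 had an unadjusted p under 0.05 (13.4% of tested genes). The median difference, G4/G5 minus G0, was 0.15 (0.04 over all tested genes), and single values ran from -0.21 to 0.52. Differences were above 0 for 57 genes (55.6% of tested genes). Both G4/G5 pools lay above both G0 pools for 28 genes and below for 3 (21.7% and 14.9%). Without G4/G5 CMP pool 1, the median was 0.10. Mrps16, the counterpart of bacterial S16, had the smallest p, with 533 and 601 in G0 CMP and 749 and 737 in G4/G5 CMP (0.39 ± 0.13, adjusted p = 0.312). Mrpl55 read 121 and 137 against 178 and 203 (0.52 ± 0.18, adjusted p = 0.319), and Mrpl23, above, differed by 0.30 (adjusted p = 0.325). On the other side, Mrps2 differed by -0.21, Mrps22 by -0.18 and Mrps31 by -0.15, all with an adjusted p of at least 0.525. Mrpl37 alone was called in 1 setting, without G4/G5 CMP pool 2 (0.85 ± 0.19, adjusted p = 0.0492), against 0.52 (adjusted p = 0.366) with all arrays.

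In GMP none was called either (0% of tested genes), and 1 had an unadjusted p under 0.05 (7.87% of tested genes). A fit to the 4 GMP arrays alone called 360 of the tested genes but still none of the 76, of which 13 had an unadjusted p under 0.05. Here the median was -0.12 (0.01 over all tested genes), and single values ran from -0.40 to 0.23. Differences were below 0 for 60 genes (49.1% of tested genes), and both G4/G5 pools lay below both G0 pools for 34 genes and above for 5 (26.5% and 28.8%). Mrps18b had the smallest p, with values given above (-0.36 ± 0.14, adjusted p = 0.613). Mrps6 read 322 and 258 (G0) against 215 and 216 (G4/G5) (-0.40, adjusted p = 0.633), and Mrpl47 differed by the same amount with 848 and 752 against 686 and 532. Mrpl23 (0.23), Mrps9 (0.22) and Mrpl2 (0.14) had the smallest p among those above 0. Other probe sets past the signal condition gave -0.73 for Mrps6, and -0.07, 0.18 and -0.06 for Mrps9.

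Averaged over both cell types, none was called (0.0338% of tested genes), 2 had an unadjusted p under 0.05 (17.8% of tested genes), 39 were above 0 (53.9% of tested genes) and the median was 0.01. The genotype difference in GMP minus that in CMP, which equals the GMP-against-CMP difference in G4/G5 minus that in G0, had a median of -0.26 (-0.03 over all tested genes). It was below 0 for 70 genes (54.9% of tested genes). No gene passed this direct test (0% of tested genes), and 4 had an unadjusted p under 0.05 (3.97% of tested genes). The 51 calls in G0 and the 10 in G4/G5 are therefore not shown to differ gene by gene. A positive value in CMP with a negative one in GMP was seen in 44 genes (20.2% of tested genes), both below 0 in 16, both above 0 in 13 and the reverse in 3. Mean signal was highest in G0 GMP for 59 genes (23.9% of tested genes). It was highest for 13 in the GMP of G4/G5, for 4 in their CMP and for none in G0 CMP. It was lowest in G0 CMP for 55 (29.5% of tested genes). The neutrophil and GMP marker sums given above also differed between the genotypes, and their part in these values was not tested.

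**Figure D5:**
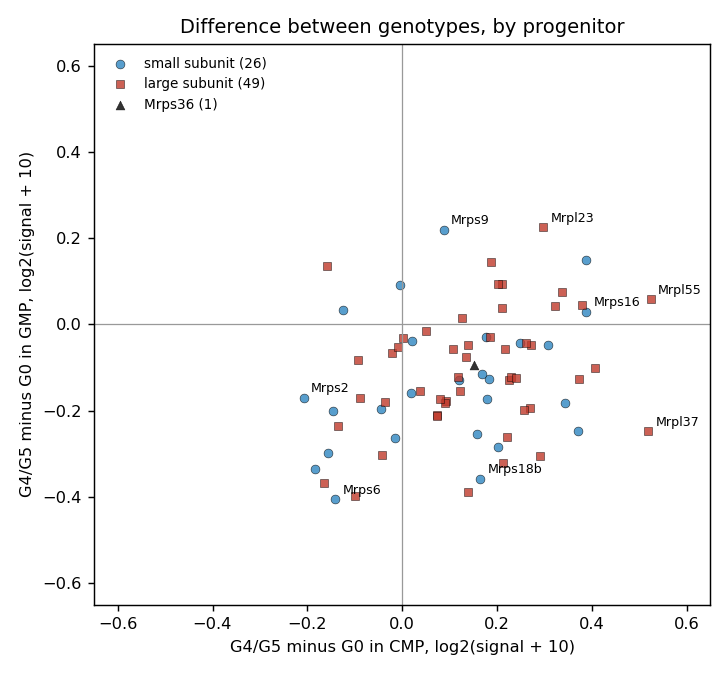
G4/G5 minus G0 difference of each of the 76 genes in log2(signal + 10), in CMP (horizontal) and in GMP (vertical), with symbols for the subunit. Most points lie right of 0 in CMP and below 0 in GMP (44 genes in the lower right part), and none was called in either comparison.

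Lists of other genes of mitochondrial translation were read from the same fit. The list of ribosome proteins with other names had 4 tested genes, of which Gadd45gip1, a large subunit protein, was higher in G0 GMP (0.63 ± 0.17, adjusted p = 0.0321), with a list median of 0.46. Of 15 translation factors and associated proteins, 4 were higher and 1 lower in G0 GMP (median 0.30), where 10.6% of all tested genes were higher and 10.2% lower. Tsfm, the exchange factor of the elongation factor Tufm, read 161 and 163 in G0 CMP and 291 and 255 in G0 GMP (0.71, adjusted p = 0.0203). Tufm itself rose by 0.57 (adjusted p = 0.0419), the RNA-stabilising protein Slirp by 0.64 (adjusted p = 0.0178), and Mtfmt, which formylates the initiator tRNA, by 0.55 (adjusted p = 0.0402). Guf1, the mitochondrial counterpart of the bacterial factor LepA, was lower (-0.58, adjusted p = 0.0470), with 95.7 and 99.2 against 60.6 and 62.7. In G4/G5 none of the 15 was called (median 0.21).

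Among 17 tested genes for mitochondrial tRNA charging, which are tRNA synthetases and the amidotransferase subunits Qrsl1, Gatb and Gatc, Yars2 was higher in GMP in both genotypes (0.70 and 0.72, adjusted p of 0.0231 and 0.0342), Kars, whose gene also gives the cytosolic enzyme, in G0 (0.52, adjusted p = 0.0244) and Iars2 in G4/G5 (0.72, adjusted p = 0.0342), and the list medians were 0.16 and 0.09. Of 24 assembly factors none was called in G0 (median 0.24), with 4 at an unadjusted p under 0.05, and Fastkd2, which binds mitochondrial RNA, in G4/G5 (0.64, adjusted p = 0.0438). A list of 18 genes joined proteins that transcribe or maintain mitochondrial DNA with nuclear regulators of mitochondrial genes such as Nrf1, Gabpa, Yy1, Esrra and Myc, and had a median of -0.07 in G0. Its 1 called gene was Ssbp1, the single-strand binding protein (0.37, adjusted p = 0.0392). These lists had at most 2 genes called in a comparison, where 10.6% of all tested genes were called higher in G0 and 4.18% in G4/G5. No gene of these lists was called in a genotype comparison.

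Subunits of respiratory complex I, whose mitochondrial members are translated by these ribosomes, had 19 of 34 tested genes higher in GMP than in CMP in normal mice and 5 in telomere-dysfunctional mice, with none lower and medians of 0.48 and 0.31. The shares of all tested genes called higher were 10.6% in G0 and 4.18% in G4/G5. Proteins of the cytosolic ribosome had none higher and 1 of 43 lower in G0 GMP (median -0.12), and 13 lower in G4/G5 GMP (median -0.50), where 10.2% and 6.29% of all tested genes were lower. In CMP the median genotype difference was 0.42 for the cytosolic ribosome and 0.26 for complex I, beside 0.15 for the mitochondrial ribosome, and no gene of the 3 sets was called. The differences between the gene sets were not tested.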

How the data were processed

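The deposited values were microarray intensities, MAS5 signals on a linear scale, 1 per probe set, which the authors made with Affymetrix MAS 5.0 scaled to a target of 100, per the series text and the submitters' processing notes. The trimmed mean of each array was 100.0005 to 100.0007. Of 45101 probe sets, 34945 had 1 gene symbol in the platform annotation, 932 several and 9160 none, and 64 were controls. Probe sets with a signal of at least 50 on at least 2 arrays were kept, with 1 per gene, giving 8886 genes. limma 3.58.1 in R 4.3.3 fitted log2(signal + 10) on all 8 arrays with 1 mean per group, an intensity trend and 4 residual degrees of freedom. Adjusted p-values are Benjamini-Hochberg over all 8886 genes, with a threshold of 0.05. Differences with errors are log2 values ± SE, and the pseudocount of 10 understates changes of dim probe sets. The number of arrays limits the precision, and p-values measure the spread between pools of mice. The labels do not say if same-numbered CMP and GMP pools share mice. The series text pairs the pools within a cell type as matched for age and sex. Deviations of same-numbered pools correlated across genes with r of 0.247 in CMP and 0.139 in GMP, beside -0.23 to 0.22 between groups that the text does not pair, so the pairing rests on that text. The genes and lists were chosen with earlier results of these data known. Named genes are the 8 largest changes among those called in each comparison, the 3 smallest p in each direction of a genotype comparison, the brightest and dimmest 5, genes with a stated role, genes whose probe sets differ in sign, and called genes of the other lists, up to 4 each way. Motifs were searched in the first RefSeq promoter window of each protein-coding gene. The fit was tested on simulated data.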

Additional observations from a re-analysis of the deposited data

How the results depend on the processing

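Leaving out 1 array at a time moved the number of mitochondrial ribosomal protein genes called in GMP against CMP between 0 and 59 in G0 and between 0 and 16 in G4/G5, and in the genotype comparison in CMP between 0 and 1. A group left with 1 array was assumed to vary like the others. Calls over all tested genes also changed when an array was left out. The medians moved between 0.56 and 0.70 in G0, 0.26 and 0.41 in G4/G5, 0.05 and 0.19 between genotypes in CMP, -0.18 and -0.06 in GMP, -0.03 and 0.05 for their mean and -0.33 and -0.16 for the difference between cell types. In G4/G5 the 10 calls of GMP against CMP became 4 with no signal filter and 3 with only the groups compared in the fit. They became 16 (15 higher, 1 lower) with a shared replicate block and 15 with a replicate block within cell type. Over all genes in the fit, the 930 calls became 492 (of 18193 genes without the filter), 428, 1225 and 1465. The cause was not tested. In G0 the shared block and the block within cell type gave 53 and 55 calls, with the 51 among them. Over all tested genes these fits gave 2093 and 2356 calls, against 1845 in the main fit. All other settings gave 43 to 55 calls in G0, with 1233 to 1860 over all genes in the fit. Over the settings other than leaving out an array, the medians were 0.56 to 0.66 in G0 and 0.31 to 0.39 in G4/G5, and none of the 76 genes was called between genotypes, although over all tested genes the GMP comparison went from 0 to 360 calls with only the groups compared. The blocks changed no other median and no genotype call. The median for the mean of both cell types changed sign between settings (-0.03 to 0.01), and no other median or called gene did. In all, 12 other settings were run in each comparison of 2 groups: another pseudocount (1 or 50), another filter (100 or none), quantile normalization, median centring, no probe sets that can match several transcripts, the mean of all probe sets, no intensity trend, both blocks and only the groups compared. With 2 pools per group, smaller differences than those called may have been missed.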

Other observations

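Probe sets annotated with more than 1 symbol were left out of the gene set. The probe set shared by Gm6238 and Mrpl30 read 1548 and 1447 (G0 CMP), 2096 and 1995 (G0 GMP), 2170.2 and 1552 (G4/G5 CMP) and 2245 and 2197 (G4/G5 GMP). The one shared by Ccdc142 and Mrpl53 read 226 and 268 (G0 CMP), 485 and 442 (G0 GMP), 355 and 318 (G4/G5 CMP) and 335 and 331 (G4/G5 GMP), with the G0 GMP pools highest. The one shared by Nme3 and Mrps34 read 154 and 121 (G0 CMP), 178 and 139 (G0 GMP), 164 and 171 (G4/G5 CMP) and 164 and 195 (G4/G5 GMP). Its GMP and CMP pools overlapped in both genotypes, unlike those of the Mrps34 probe set used above.

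Within each group, pool 1 read higher than pool 2 for most of the 76 genes: 52 (G0 CMP), 60 (G0 GMP), 50 (G4/G5 CMP) and 67 (G4/G5 GMP). The median of pool 1 minus pool 2 over the genes was 0.17, 0.14, 0.13 and 0.13 on the log2 scale in these groups, against -0.03, -0.01, -0.05 and -0.01 over all tested genes. The cause was not tested.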
